A study of Capra hircus with 4 samples.

Results

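The forkhead and SOX genes encode 2 families of transcription factors, and all 60 rows whose gene symbol is a numbered FOX or SOX name were taken from the 20326 genes of the tables. SOX9 was left out by the rule, and 43 forkhead and 17 SOX genes remained. Choosing by symbol used no measured value. All 60 GeneIDs were found in the RefSeq gene table of the goat.

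The cells were secondary hair follicle stem cells of the cashmere goat (Capra hircus), from the follicles that grow the fine undercoat, isolated from back skin and cultured. The mid anagen group was taken in October and the early anagen group in April, and each phase has 1 female and 1 male library of total RNA. Phase and month of collection coincide in these libraries, so differences between the groups cannot be assigned to one or the other. The labels name no treatment, genotype or animal age, and call the female and the male library of a phase biological replicates. The number of animals behind a library is not given in the sources used here.

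Forkhead proteins bind DNA through a winged helix domain, and SOX proteins bind the minor groove through an HMG box and bend the DNA. Both families set cell identity in skin. In mouse follicles FOXC1 and FOXP1 help keep stem cells quiescent, FOXN1 and FOXQ1 act in the differentiating hair shaft, and SOX21 acts in the hair shaft cuticle. FOXM1 drives mitotic genes, and the FOXO factors, which AKT kinases hold in the cytoplasm, switch on genes of stress resistance and arrest.

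Values are deposited abundances per gene, which appear to be normalised for transcript length, so that levels of different genes can be set side by side. The number of reads behind a value is unknown. A gene is called expressed here where its abundance was at least 1 in at least 2 of the 4 libraries. The libraries were similar in breadth, with 12040 to 12458 genes at or above 1. Markers of keratinocytes, the cells that follicle stem cells belong to, were all 8 expressed, with KRT14 at 9603 and 8956 in the mid anagen female and male libraries, against 20587 and 23511 in the early anagen female and male libraries. The 8 keratinocyte genes summed to 19372 and 20549 in the mid female and male, against 39286 and 44096 in the early female and male. KRT5 and KRT14 made up most of these sums. Over the 8 genes the median log2 fold change, mid over early anagen, was -0.20. In both sexes 5 of the 8 were lower at mid anagen and 2 were higher. In the limma comparison of the phases, 0 of the 8 passed. The 10 fibroblast markers summed to 172 and 47.0 in the mid female and male, against 0.992 and 2.68 in the early female and male. Of the 7 expressed ones 0 passed (smallest adjusted p = 0.0551). In bulk RNA, more cells of a type and more RNA per cell cannot be told apart.

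Of the 60 genes, 24 were expressed, namely 19 forkhead and 5 SOX genes, and 20 of them were at or above 1 in every library. The other 36 were under 1 in every library, and 9 of those were listed at 0 throughout. By library, 24 (female) and 23 (male) members reached 1 at mid anagen, against 23 (female) and 21 (male) at early anagen. Every expressed gene is shown with its 4 values in the plot of levels.

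**Figure D1:**
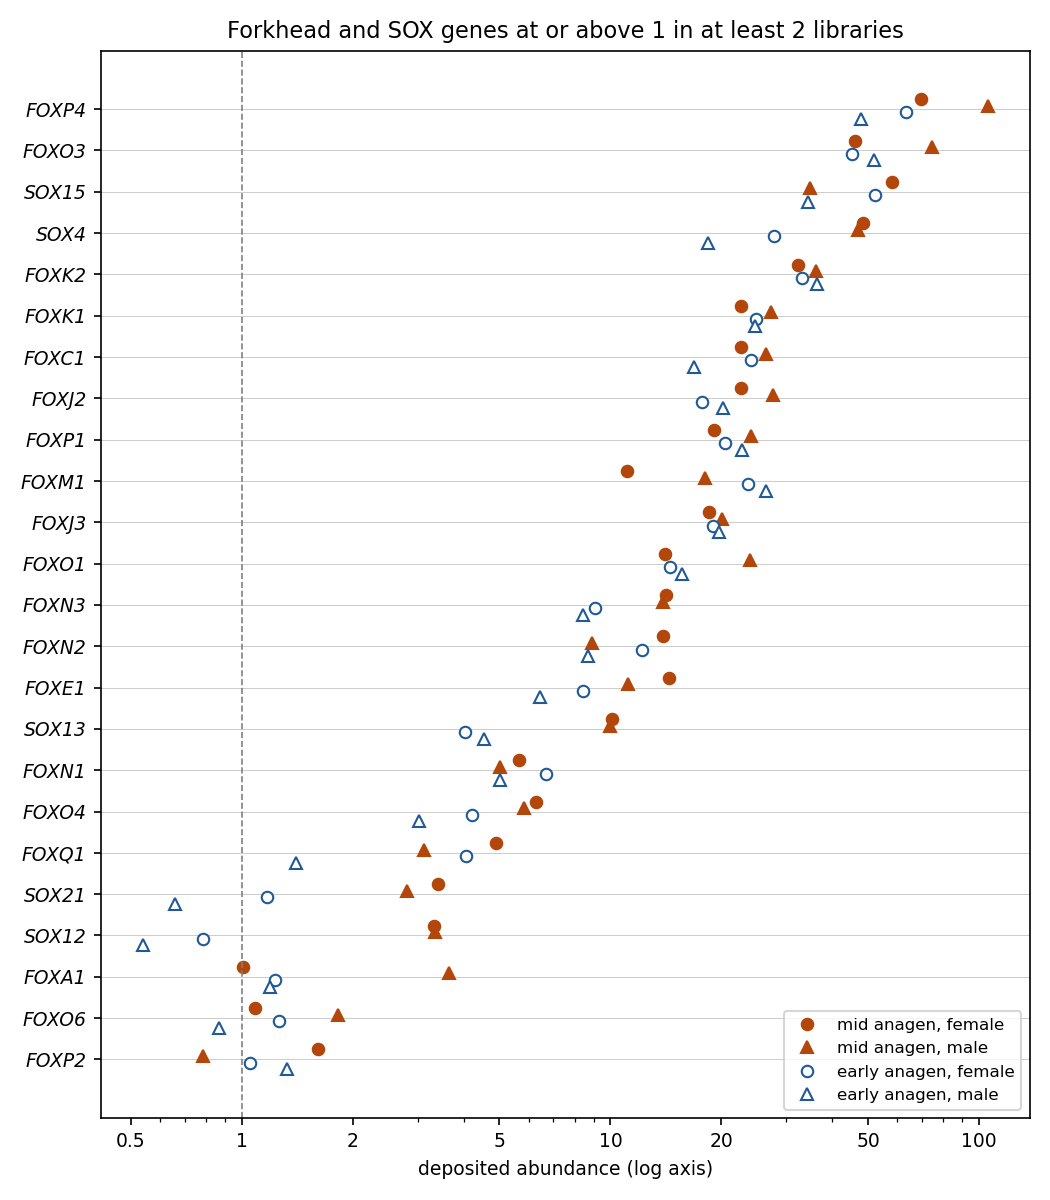
Deposited abundance of the 24 expressed forkhead and SOX genes on a log axis, 1 row per gene ordered by mean level, with mid anagen libraries filled and early anagen libraries open, circles female and triangles male; the dashed line is an abundance of 1. FOXP4 tops the plot with 69.4 and 105 at mid anagen, and the mid points of SOX4, SOX13, SOX12 and SOX21 lie to the right of their early points.

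Summed abundance was spread over more genes in the forkhead than in the SOX family. FOXP4, FOXO3 and FOXK2 gave 42.8% and 49.1% of the forkhead sum in the mid female and male, against 42.2% and 42.4% in the early female and male. SOX15 and SOX4 gave 84.7% and 80.8% of the SOX sum at mid anagen, against 91.8% and 86.7% at early anagen. FOXP4 lay above 90.5% and 94.3% of all genes in the mid libraries, against 88.9% and 84.7% in the early libraries. The 36 genes under 1 added little, with the 24 forkhead genes among them summing to 3.51 and 2.67 at mid anagen, against 1.92 and 1.56 at early anagen.

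The phases were compared with limma on log2(value + 1) across 12486 genes, mid over early anagen, with Benjamini-Hochberg adjustment over the whole table. No forkhead or SOX gene passed an adjusted p of 0.05, 0 of 24, where 0.304% of all genes tested passed. At an unadjusted p under 0.05 there were 8 of 24, or 33.3%, where 27.9% of all genes tested had one. Of these 8, 7 were higher at mid anagen (13.2% of all genes) and 1 was lower (14.7% of all genes). Both mid libraries lay outside the range of both early libraries for 10 of 24, or 41.7%, where 62.3% of all genes tested did so. Of those 10, 9 were higher (31.5% of all genes) and 1 was lower (30.9% of all genes). Both counts of higher genes, and the medians below, include SOX12. It reached 1 only at mid anagen, so the filter fixed its direction.

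The median log2 fold change was 0.27 over the 24 genes, with 0.26 over the forkhead and 1.07 over the SOX genes, against 0.01 over all genes tested. Within each sex, taking the mid against the early library, the forkhead median was -0.03 for females and 0.52 for males. The SOX median was 1.02 for females and 1.195 for males. Rescaling every library to a common total moved the median of all genes by 0.31 upward, and the medians became 0.59 for forkhead and 1.36 for SOX genes. Genes with a fold change near 0 as deposited are therefore higher at mid anagen on that scale.

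**Figure D2:**
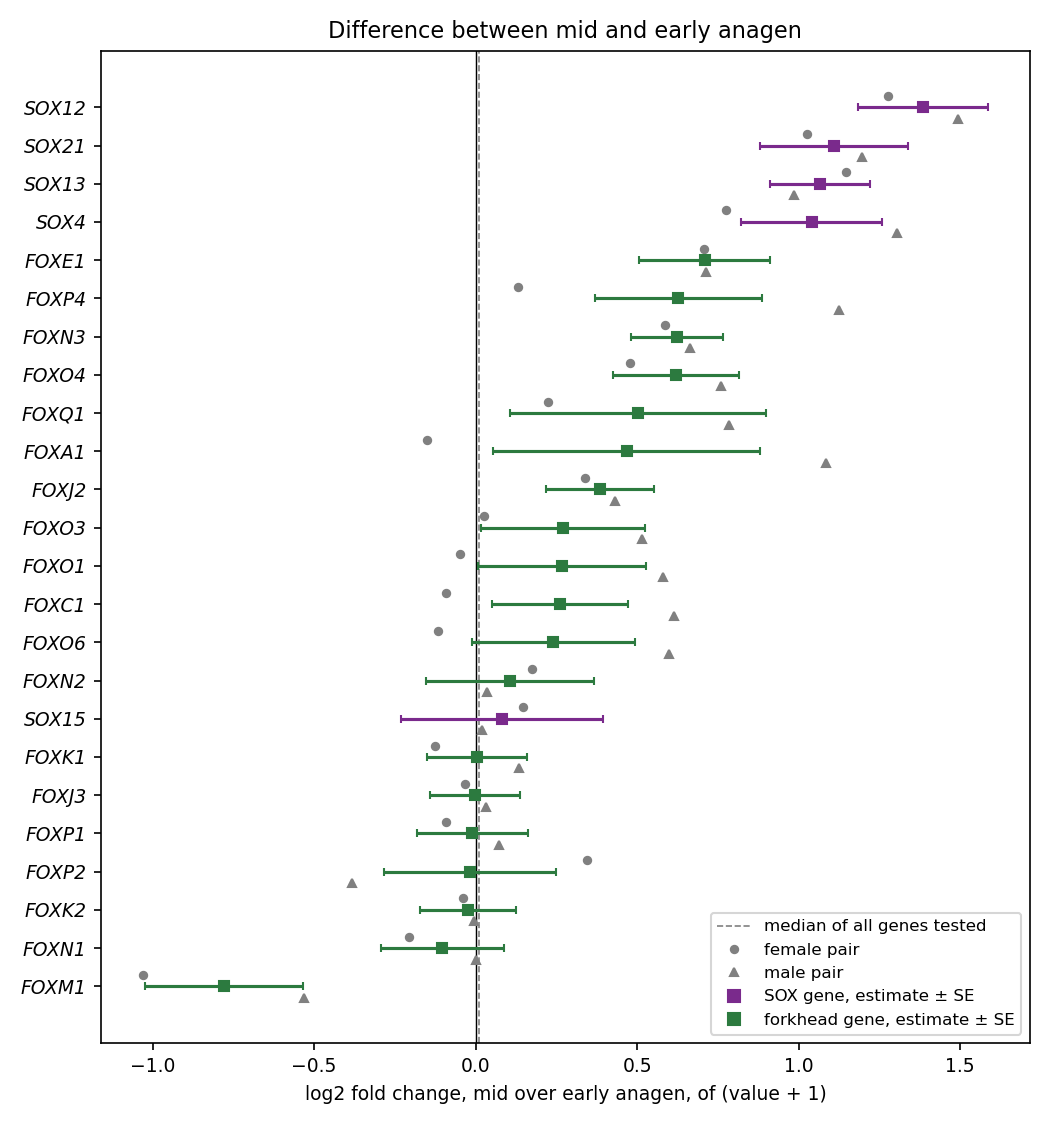
Log2 fold change of (value + 1), mid over early anagen, for the 24 expressed genes, with squares and bars for the limma estimate ± SE (n = 2 libraries per phase), grey circles for the female pair and grey triangles for the male pair; the dashed line is the median of all genes tested, 0.01. SOX12, SOX21, SOX13 and SOX4 stand at the top between 1.04 and 1.38, and FOXM1 stands alone at the bottom at -0.78.

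Among the SOX genes, 4 of the 5 expressed ones had higher values in both mid libraries than in either early library, where 31.5% of all genes tested did so. The 4 include SOX12, which passed the filter through the mid libraries alone, so its direction was fixed in advance. None of the 5 passed the adjusted threshold. SOX4 (GeneID 108633488), a SoxC factor that acts in progenitor cells, was at 48.4 (female) and 47.0 (male) at mid anagen, against 27.9 (female) and 18.4 (male) at early anagen. The mid libraries were nearly equal and the groups did not overlap. The log2 fold change was 1.04 (SE 0.22, limma adjusted p = 0.0783, n = 2 per phase), which did not pass.

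SOX12 (GeneID 108637407), the SoxC paralog of SOX4, was at 3.32 (female) and 3.34 (male) at mid anagen, against 0.783 (female) and 0.541 (male) at early anagen. It was at or above 1 only at mid anagen, so the filter fixed its direction. Its log2 fold change was 1.38 (SE 0.20, limma adjusted p = 0.0639). Within a library SOX4 was 14.6 and 14.1 times SOX12 in the mid female and male, against 35.5 and 34.1 times in the early female and male. SOX11, the remaining SoxC gene, was at 0.293 and 0.451 in the mid libraries, against 0.0948 and 0.436 in the early libraries, and overlapped.

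SOX13 (GeneID 102179689), a SoxD factor, was at 10.1 (female) and 9.97 (male) at mid anagen, against 4.03 (female) and 4.54 (male) at early anagen. The groups did not overlap, and the libraries of a phase were close. Its log2 fold change was 1.07 (SE 0.15, limma adjusted p = 0.0639), the smallest p-value among the 24 and rank 122 of all genes tested. The SoxD paralogs stayed under 1, with SOX5 at 0.427 and 0.805 in the mid libraries, against 0.294 and 0.444 in the early libraries, and SOX6 at 0.951 and 0.863, against 0.294 and 0.613.

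SOX21 (GeneID 108637292), a SoxB2 repressor, was at 3.41 (female) and 2.80 (male) at mid anagen, against 1.17 (female) and 0.660 (male) at early anagen. Again no early library reached the mid values. The log2 fold change was 1.11 (SE 0.23, limma adjusted p = 0.0782).

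SOX15 (GeneID 102190907), the single SoxG factor, was at 57.9 (female) and 34.8 (male) at mid anagen, against 52.2 (female) and 34.3 (male) at early anagen. Both female values were above both male values, and the phases overlapped. The log2 fold change between phases was 0.08 (SE 0.31, limma adjusted p = 0.884). The ratio of SOX15 to SOX4 was 1.196 and 0.740 in the mid female and male, against 1.88 and 1.86 in the early female and male, so that SOX4 was the most abundant of the 17 SOX genes in the mid male library alone.

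Some tests turned on single libraries or on scaling. Without the mid female library the log2 fold change was 1.06 for SOX13 and 1.39 for SOX12. Without the mid male library that of FOXM1 was -1.11. After rescaling to a common total SOX12, SOX13, SOX4, SOX21 and FOXN3 passed, with limma adjusted p between 0.0378 and 0.0497. On that scale 5.19% of all genes tested passed, 87.2% of them higher, and the median of all genes was 0.32. The 5 include SOX12, whose direction the filter fixed. Over the alternatives with phase alone as a term, the adjusted p of SOX13 ran from 0.0378 to 0.320 and that of FOXM1 from 0.0438 to 0.482. The fibroblast marker sum was also higher in both mid libraries, and its part in the SOX values was not tested.

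FOXM1 (GeneID 102170590), the forkhead activator of mitotic genes, was the only one of the 24 expressed members with lower values in both mid libraries than in either early library. It was at 11.1 (female) and 18.0 (male) at mid anagen, against 23.6 (female) and 26.4 (male) at early anagen. Its log2 fold change was -0.78 (SE 0.24, limma adjusted p = 0.124), which did not pass. After rescaling to a common total it was -0.45.

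Genes that FOXM1 is known to activate, most of them mitotic, were read from the same fit. Of 15 such genes, all expressed, 0 passed in either direction, 11 had an unadjusted p under 0.05 and were lower (14.7% of all genes), and 12 were lower in both mid libraries than in either early library (30.9% of all genes). Their median log2 fold change was -0.92 as deposited and -0.59 after rescaling. CCNB1, the mitotic cyclin, was at 84.4 and 110 in the mid female and male, against 208 and 245 in the early female and male (log2 fold change -1.22, SE 0.20, adjusted p = 0.0724). NEK2, a centrosome kinase, was at 28.3 and 33.8 at mid anagen, against 57.9 and 61.0 at early anagen (adjusted p = 0.0724). CKS1B, a subunit of cyclin-dependent kinases, was at 85.3 and 81.1, against 156 and 196 (adjusted p = 0.0724). CENPF, CENPE and CDC25B overlapped between the phases.

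The 4 FOXO genes were all expressed, and FOXO3 was the most abundant of them in every library. FOXO3 (GeneID 102188676) was at 46.0 (female) and 74.4 (male) at mid anagen, against 45.2 (female) and 51.7 (male) at early anagen. The mid male library was high and the groups overlapped (log2 fold change 0.27, SE 0.25, limma adjusted p = 0.518). FOXO1 (GeneID 102184915) was likewise highest in the mid male library, at 14.0 (female) and 23.9 (male) at mid anagen, against 14.5 (female) and 15.7 (male) at early anagen (adjusted p = 0.536).

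FOXO3 was 3.28 and 3.11 times FOXO1 in the mid female and male, against 3.11 and 3.30 times in the early female and male. The ratio of these paralogs thus varied little across the libraries. FOXO4 (GeneID 102170593) was at 6.28 and 5.83 in the mid libraries, against 4.22 and 3.03 in the early libraries. Its groups did not overlap (log2 fold change 0.62, SE 0.20, limma adjusted p = 0.125). FOXO6, which in mouse is best known from the brain, was near the limit of expression, at 1.09 and 1.82 in the mid female and male, against 1.26 and 0.867 in the early libraries.

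AKT2, one of the kinases that phosphorylate FOXO factors, was at 34.0 (female) and 38.3 (male) at mid anagen, against 41.4 (female) and 45.3 (male) at early anagen (limma adjusted p = 0.313). Its log2 fold change of -0.26 became 0.08 after rescaling.

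Of 20 genes that FOXO factors are known to activate, 18 were expressed. Of these, 1 passed the adjusted threshold and was lower and 0 passed higher, where 0.304% of all genes tested passed. The median log2 fold change of the 18 was 0.26. BNIP3, a mitophagy receptor that low oxygen also induces, was at 115 (female) and 103 (male) at mid anagen, against 344 (female) and 365 (male) at early anagen. It fell by 1.69 on the log2 scale (SE 0.17, limma adjusted p = 0.0431). That call ended without the early female library (adjusted p = 0.0869), without the early male library (adjusted p = 0.266), with no filter (adjusted p = 0.105) and with a pseudocount of 0.1 (adjusted p = 0.0531). SESN3, a stress-induced sestrin, was at 38.7 and 33.4 in the mid libraries, against 13.0 and 4.19 in the early libraries (adjusted p = 0.0808). FBXO32, a ubiquitin ligase subunit, was at 7.52 and 7.11, against 4.57 and 2.69 (adjusted p = 0.1004). In all, 9 of the 18 had no overlap and were higher (31.5% of all genes), and 2 were lower (30.9% of all genes).

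**Figure D3:**
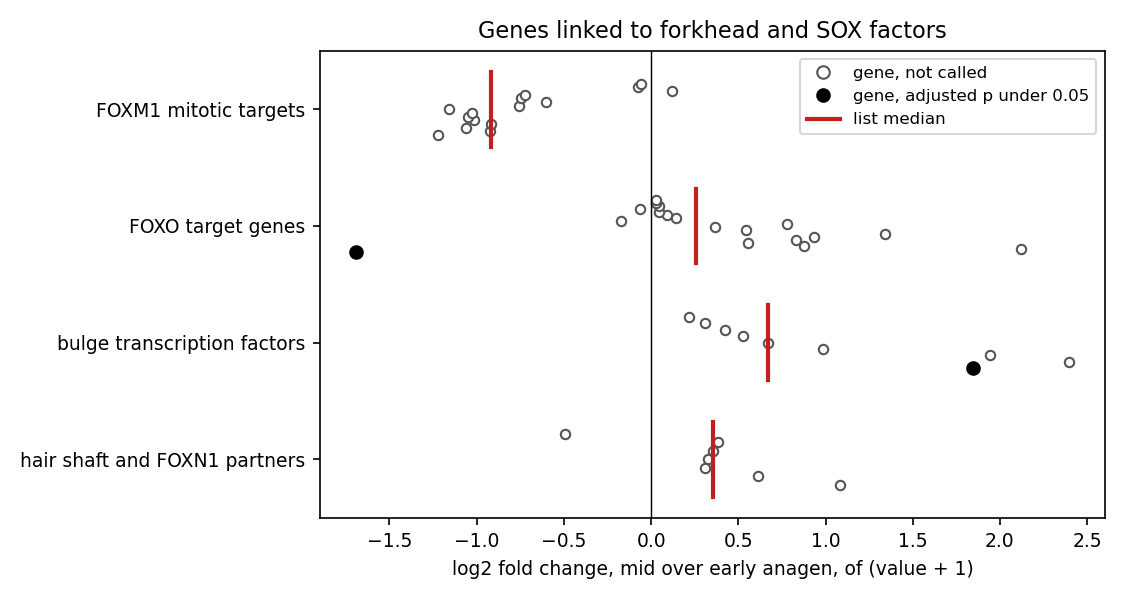
Log2 fold change of (value + 1), mid over early anagen, for the expressed genes of 4 lists linked to forkhead and SOX factors, 1 point per gene, filled where the limma adjusted p is under 0.05, with the list median as a red line. The FOXM1 targets lie mostly left of 0 with a median of -0.92, and the filled points are BNIP3 on the left and LHX2 on the right.

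The FOXP genes encode repressors that pair with each other. FOXP4 (GeneID 102173343) was at 69.4 (female) and 105 (male) at mid anagen, against 63.3 (female) and 47.8 (male) at early anagen. The mid male library stood far above the rest, and the female pair differed little (log2 fold change 0.13, against 1.13 in the male pair). Over both, the log2 fold change was 0.63 (SE 0.26, limma adjusted p = 0.188).

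FOXP1 (GeneID 102171383) was at 19.0 and 24.0 in the mid female and male, against 20.4 and 22.8 in the early female and male. The groups overlapped. Its log2 fold change was -0.01 (SE 0.17, limma adjusted p = 0.976) and became 0.32 after rescaling. FOXP4 was 3.64 and 4.39 times FOXP1 at mid anagen, against 3.11 and 2.10 times at early anagen. FOXP2 was near 1, at 1.61 (female) and 0.783 (male) at mid anagen, against 1.05 (female) and 1.32 (male) at early anagen. FOXP3, the factor of regulatory T cells, stayed at 0.389 to 0.556.

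Among the forkhead genes known from skin and hair, FOXC1 and FOXE1 were well expressed. FOXC1 (GeneID 106503522) was at 22.6 (female) and 26.4 (male) at mid anagen, against 24.1 (female) and 16.9 (male) at early anagen. The early male was the low library and the groups overlapped (log2 fold change 0.26, SE 0.21, limma adjusted p = 0.448). FOXE1 (GeneID 106502413), which in mouse and human is needed for the thyroid and for hair, was at 14.4 (female) and 11.2 (male) at mid anagen, against 8.44 (female) and 6.44 (male) at early anagen. Its groups did not overlap, and the log2 fold change was 0.71 (SE 0.20, adjusted p = 0.108) and about the same in each sex.

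FOXN1 (GeneID 102187346), the gene mutated in the nude mouse, was at 5.65 (female) and 5.005 (male) at mid anagen, against 6.67 (female) and 5.004 (male) at early anagen. Its log2 fold change was -0.10 (SE 0.19, limma adjusted p = 0.758), and 0.19 after rescaling. FOXQ1, the gene of the satin coat in mice, was at 4.90 and 3.13 in the mid libraries, against 4.06 and 1.40 in the early libraries, with each female above the male of its phase (adjusted p = 0.442). FOXA1, a pioneer factor of epithelia, was at 1.01 (female) and 3.66 (male) at mid anagen, against 1.23 (female) and 1.196 (male) at early anagen, so the mid male alone was high. FOXI3, a factor of hair and tooth placodes, reached at most 0.0221.

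Of 13 genes linked to hair follicle development and the hair shaft, 11 were found by symbol, 7 were expressed and 0 passed. The median log2 fold change of the 7 was 0.36. HOXC13, a hair shaft regulator, was at 9.15 and 5.03 in the mid female and male, against 3.87 and 1.80 in the early female and male (adjusted p = 0.140). MSX2 was at 4.60 and 4.63, against 3.49 and 2.00 (adjusted p = 0.176), and DLX3 at 17.4 and 17.9, against 14.4 and 13.6 (adjusted p = 0.211). LEF1, DSG4, KRT25 and EDAR of the same list were under 1 in every library. The hair shaft keratin KRT35 was at 1.00 and 0.402 in the mid libraries, against 3.81 and 0.156 in the early libraries, with the early female alone high.

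A further list held 9 transcription factors, most of them known from the follicle bulge, and all were expressed. Of these, 1 passed and was higher and 0 passed lower, where 0.304% of all genes tested passed. Without overlap, 8 of the 9 were higher (31.5% of all genes). The median log2 fold change of the 9 was 0.67. LHX2, a stem cell factor, was at 31.7 and 32.1 in the mid libraries, against 9.54 and 6.94 in the early libraries (adjusted p = 0.0431). The LHX2 call ended with no filter, with a pseudocount of 0.1 and without either early library, at adjusted p of 0.0531 to 0.211. TCF7L1, a WNT pathway factor, was at 11.5 and 15.3, against 2.39 and 1.17 (adjusted p = 0.0551). TBX1, which in mouse supports renewal of follicle stem cells, was at 14.3 and 15.8, against 4.61 and 2.10 (adjusted p = 0.07).

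Several broadly used forkhead genes had close values in the phases. FOXK2 (GeneID 102175242) was at 32.2 and 36.1 in the mid female and male, against 33.1 and 36.2 in the early female and male. Its paralog FOXK1 was at 22.6 and 27.3, against 24.8 and 24.7, and both are known to act on autophagy and glucose metabolism genes. FOXJ3 was at 18.5 and 20.1, against 19.0 and 19.7. The log2 fold changes of these genes lay between -0.02 and 0.01 with SE from 0.14 to 0.16, and between 0.31 and 0.33 after rescaling.

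FOXJ2 (GeneID 102182954) was at 22.6 (female) and 27.6 (male) at mid anagen, against 17.7 (female) and 20.2 (male) at early anagen. The groups did not overlap (log2 fold change 0.38, SE 0.17, limma adjusted p = 0.203). FOXN3 (GeneID 102189963), a repressor linked to the DNA damage checkpoint, was at 14.1 and 13.9 in the mid libraries, against 9.08 and 8.40 in the early libraries. Both mid values were close to each other and above the early ones (log2 fold change 0.62, SE 0.14, adjusted p = 0.0838). FOXN2 was at 13.9 and 8.92, against 12.2 and 8.68, with both females above both males (adjusted p = 0.819).

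**Figure D4:**
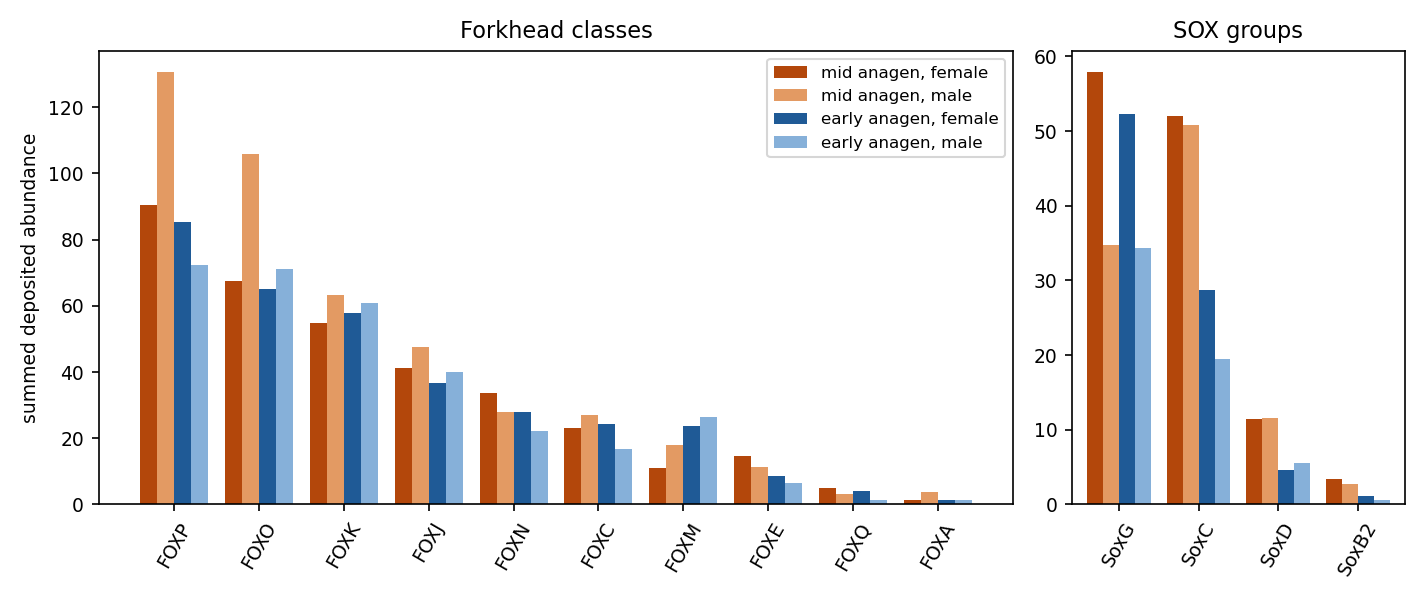
Summed deposited abundance per forkhead class (left) and SOX group (right) with at least 1 expressed gene, bars from left to right for the mid female, mid male, early female and early male library. The FOXP and FOXO sums are largest in the mid male library, at 131 and 106, and the SoxC sum is 52.0 and 50.8 at mid anagen, against 28.7 and 19.4 at early anagen.

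Summed over classes, the forkhead genes reached 344 (female) and 440 (male) at mid anagen, against 336 (female) and 320 (male) at early anagen. The SOX genes reached 125 and 101 at mid anagen, against 87.2 and 60.8 at early anagen. In both phases the SOX sum was larger in the female. The FOXP class had the largest forkhead sum in every library, at 90.5 and 131 in the mid libraries, against 85.3 and 72.4 in the early libraries.

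Of the 36 genes under 1 everywhere, 27 were above 0 in some library. Among these 27, 8 had no overlap and were higher at mid anagen (25.0% of the 4423 genes of that kind) and 2 were lower (13.2% of them). FOXC2, a mesenchymal and vascular factor and the paralog of FOXC1, was at 0.543 and 0.501 in the mid female and male, against 0.0866 and 0.0265 in the early female and male. FOXS1, known in mouse from pericytes and sensory neurons, was at 0.701 and 0.578, against 0.150 and 0.148. With no filter their limma adjusted p was 0.105 and 0.109.

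FOXL2, the ovary factor, was at 0.208 and 0.125 in the mid libraries, against 0.0337 and 0.0310 in the early libraries. FOXE3, the lens factor, was at 0.316 and 0.263, against 0.146 and 0.110. FOXA3, an endoderm factor, ran the other way, at 0.104 and 0.0982 against 0.175 and 0.184. These levels lie where the read depth, which is unknown, limits what can be seen.

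**Figure D5:**
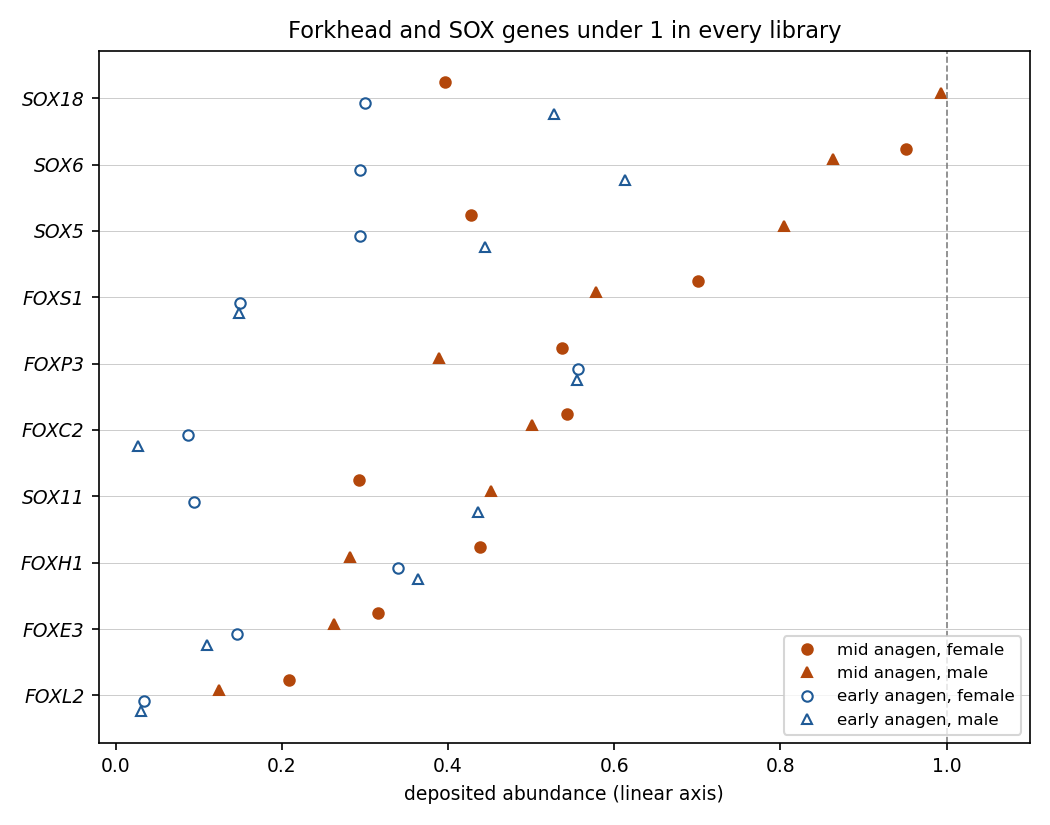
Deposited abundance on a linear axis of the 10 forkhead and SOX genes that were under 1 in every library and reached 0.2 in at least 1, with mid anagen libraries filled and early anagen libraries open, circles female and triangles male; the dashed line is 1. SOX18 in the mid male library comes closest to 1, at 0.993, and FOXS1 and FOXC2 show the widest gaps between phases.

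Genes that mark other lineages were among the low ones. SOX10, the factor of melanocytes and Schwann cells, was at 0.107 and 0.198 in the mid female and male, against 0.0439 and 0.0403 in the early female and male. Of 12 markers of those cells, 7 were under 1 everywhere, and the pigment enzyme gene DCT was listed at 0. The list summed to 83.9 and 80.3 at mid anagen, against 63.2 and 46.0 at early anagen. ERBB3, EDNRB and S100B made up most of each sum. S100B was at 21.2 and 21.9 at mid anagen, against 8.57 and 5.35 at early anagen (limma adjusted p = 0.0649). ERBB3 was at 33.9 and 39.1, against 22.7 and 20.1, and EDNRB at 22.4 and 12.2, against 26.2 and 13.5. The other expressed markers of the list were MITF and PMEL. MITF was at 3.93 and 4.84, against 3.34 and 4.40, and overlapped between the phases. PMEL was slightly lower at mid anagen, at 2.40 and 2.08, against 2.41 and 2.54. SOX18, a factor of vessels, was at 0.396 and 0.993, against 0.301 and 0.528, while SOX17 and the endothelial gene CDH5 were listed at 0 in every library. The 11 endothelial markers summed to 11.8 and 11.4, against 4.33 and 4.55, and 9 of them were under 1 everywhere. ERG and EGFL7 made up most of each sum, and neither passed the adjusted threshold. ERG was at 4.19 and 5.24, against 0.884 and 0.333, and EGFL7 at 7.10 and 5.16, against 2.86 and 3.72. Only at mid anagen did ERG reach 1, so the filter fixed its direction.

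SOX2, which in mouse marks dermal papilla cells, was at 0.121 and 0.0380 in the mid libraries, against 0.120 and 0.166 in the early libraries. The mesenchymal factors FOXF1, FOXF2 and FOXD1 reached at most 0.0456, 0.0507 and 0.0400. The fibroblast marker COL1A1 was at 58.6 and 19.8 in the mid libraries, against 0.179 and 0.987 in the early libraries (limma adjusted p = 0.0551). All 7 expressed genes of that list passed the filter through the mid libraries alone, which fixed their direction, and 0 of the 7 passed the test. The part of other cell types in the low forkhead values was not tested. Of 6 immune markers, 5 were found and summed to 17.4 and 11.5 at mid anagen, against 7.60 and 6.63 at early anagen. CD14 was at 12.6 and 8.52 in the mid libraries, against 3.28 and 2.49 in the early libraries (adjusted p = 0.0688), CD68 ran from 2.40 to 4.41, and PTPRC was listed at 0 in every library.

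The remaining genes above 0 and under 1 included FOXA2, FOXD2, FOXH1, FOXI1, FOXJ1, FOXL1, FOXR1, SOX3, SOX8 and SOX30, with values from 0 to 0.439. The genes listed at 0 in every library were FOXB1, FOXB2, FOXD3, FOXI2, FOXN4, FOXR2, SOX1, SOX14 and SOX17.

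Some forkhead genes lie next to each other in the gene order of the RefSeq annotation, which was used for order alone. FOXQ1, FOXF2 and FOXC1 follow each other with 0 protein-coding genes between them. FOXC1 and FOXQ1 were expressed in all 4 libraries, while FOXF2, which lies between them, was at 0.0218 and 0.0507 in the mid libraries and at 0 and 0.0192 in the early libraries. FOXC2 and FOXL1 are neighbours, with FOXF1 on the other side of FOXC2 beyond 1 gene. None of these 3 reached 1. FOXE3 and FOXD2, with 1 gene between them, were likewise under 1 everywhere.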

How the data were processed

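RNA-seq libraries of cultured goat secondary hair follicle stem cells were grouped by the phase in their titles, 2 libraries per phase. The deposited values are a signal, an abundance per gene that the authors rescaled between libraries as far as the values show. Per the submitters' processing notes, kallisto 0.46.1 and sleuth 0.30.0 were used. Genome build, gene annotation and read depth: not given in the sources used here. Totals ran from 844960 to 1186966. Fits used limma 3.58.1 under R 4.3.3 on log2(value + 1), with an intensity trend and phase alone as a term, so fold changes of low genes are understated. Genes at or above 1 in at least 2 libraries were tested, 12486 in all, with Benjamini-Hochberg adjustment and a threshold of 0.05. Nothing says whether a library is 1 animal, so p-values rest on the spread between these libraries. Within a phase that spread includes the difference between the female and the male library. The fit was also run on simulated data with spreads shuffled among genes, unlike these libraries, and no result here rests on that run. Each list is given by its called genes and its 3 smallest p. Some genes, and the counts of a list of FOXO regulators that needs them, are not reported here. Markers, lists and members were chosen with earlier results of these data known. Gene order came from RefSeq's ARS1.2 annotation.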

Additional observations from a re-analysis of the deposited data

Results flagged for a closer look

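In 4 of the 24 expressed genes the female pair and the male pair moved in opposite directions between phases, each by at least 0.1 on the log2(value + 1) scale. The share of all genes with opposite moves of that size was not counted, so the 4 cannot be set against it. At any size of move, the pairs were opposite in 9 of the 24 genes and in 2933 of all 12486 genes tested. With 1 library per sex and phase, the difference between the sexes was not tested. The log2 fold change in the male pair minus that in the female pair was 1.24 for FOXA1 (female pair -0.15, male pair 1.08), 0.26 for FOXK1 (-0.13 and 0.14), 0.71 for FOXO6 (-0.12 and 0.60) and -0.73 for FOXP2 (0.35 and -0.38). FOXA1, FOXO6 and FOXP2 were at 0.783 to 3.66 in all libraries, near the limit used for expression. Groups of 2 libraries are too small for a check of single outlying libraries.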

How the results depend on the processing

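Over all genes tested 38 passed as deposited, 18 with a pseudocount of 0.1, 0 with no filter (3843 at an unadjusted p under 0.05), 648 after rescaling to a common total and 0 to 733 when each library was left out. A lone library is then assumed to vary like the pair of the other phase. The split of calls was 73.7% higher as deposited and 87.2% after rescaling. The number of forkhead and SOX genes past the threshold was 0 as deposited, 5 after rescaling and 0 to 2 without single libraries. A replicate block, with the replicate number, which is also the sex, as a second term, gave 1782 calls (14.3% of genes, 51.5% higher) and 7 members: FOXM1, SOX13, FOXN3, FOXE1, SOX4, SOX21 and SOX12. The labels do not pair the libraries, and the female minus male differences of the phases correlated at 0.292 across genes. The median of the 24 genes was 0.27 as deposited, 0.60 after rescaling and 0.21 to 0.49 without single libraries.

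Signs turned after rescaling for FOXJ3 (0.33), FOXK2 (0.31), FOXN1 (0.19), FOXP1 (0.32), FOXP2 (0.16) and the list gene AKT2 (0.0771). Leaving out single libraries turned signs for 12 genes, with ranges of -0.28 to 0.44 for SOX15, -0.14 to 1.07 for FOXA1, -0.0572 to 0.0556 for FOXJ3, -0.12 to 0.13 for FOXK1, -0.10 to 0.0565 for FOXK2, -0.28 to 0.0734 for FOXN1, -0.19 to 0.40 for FOXN2, -0.10 to 0.63 for FOXO1, -0.0703 to 0.61 for FOXO3, -0.17 to 0.15 for FOXP1, -0.29 to 0.26 for FOXP2 and -0.0346 to 1.04 for FOXQ1. The causes were not tested. The planned removal of a trend with gene span was not run, for want of a genome build in the labels or files. Depth is unknown, which limits genes under 1 most.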
